A study of Mus musculus with 2 samples.

Results

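Bone morphogenetic protein (BMP) signalling was followed in C2C12 myotubes through 10 genes: the ligands Bmp4 and Bmp7, the receptors Bmpr1a and Bmpr2, the intracellular Smads Smad1 and Smad6, and the target genes Id1, Id2, Id3 and Id4. They were taken by gene name and hold 16 of the 56605 distinct non-control probes, or 10 of the 37061 gene names on the array. C2C12 is a mouse myoblast line, here differentiated into myotubes with horse serum. Myotubes of the KPC-exo group received 4 µg of exosomes, the small vesicles that cells shed, from a mouse pancreatic cancer line. Those of the MPDC-exo group, the control, received exosomes from a pancreatic duct cell line of the same species. The labels used here state no dose for MPDC-exo, nor how many cultures lie behind an array. The KPC line came from a tumour of a mouse heterozygous for conditional alleles, Trp53 R172H among them, switched on by Cre from the pancreatic Pdx1 promoter. RNA was taken 24 h after the exosomes were added and read on 1 array per group. Without replicates no test is possible, and every difference lies between 2 arrays.

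BMP ligands bind pairs of type I and type II receptor kinases on the cell surface, and the type I receptor then phosphorylates Smad1 and its close relatives, which enter the nucleus with Smad4. There they switch on the Id genes, among the most direct BMP targets, and Smad6, whose product blocks the pathway in turn. Id proteins bind other helix-loop-helix factors without touching DNA and so keep MyoD and its partners from acting, which holds myoblasts undifferentiated. In C2C12 cells, added BMP ligand diverts the cells from muscle towards bone, and in adult muscle BMP signalling helps to keep muscle mass.

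A probe is a 60-base oligonucleotide that captures 1 stretch of a message, and each value below belongs to 1 such stretch. The probes of Smad6, Id3, Bmp4 and Bmpr1a printed here were chosen because they lie in the protein-coding part of their messages (that of Bmpr1a at the start codon), a placement known from the proteins and not from an annotation used here, and that of Nog, the BMP antagonist noggin, is added because it had the largest difference in the wider pathway. All are written 5′ to 3′ as the scanner files give them, with mm9 positions.
Smad6, chr9:63801378-63801437, minus strand: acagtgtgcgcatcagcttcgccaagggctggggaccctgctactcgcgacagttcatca
Id3, chr4:135700075-135700249, plus strand: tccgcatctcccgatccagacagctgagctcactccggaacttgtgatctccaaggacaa
Bmp4, chr14:47003802-47003861, minus strand: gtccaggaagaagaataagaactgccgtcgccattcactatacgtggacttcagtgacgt
Bmpr1a, chr14:35260969-35261028, minus strand: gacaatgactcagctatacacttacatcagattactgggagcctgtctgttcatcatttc
Nog, chr11:89162849-89162908, minus strand: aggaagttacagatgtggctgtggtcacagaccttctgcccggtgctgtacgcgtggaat
The Id3 probe spans 175 bases of genome with its 60 bases and so matches it in separate pieces, while the other 4 each match 60 unbroken bases. None of the 16 member probes, nor that of Nog, shared a run of 20 bases with a probe of another gene on the array.

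The scanner signal was brighter overall on the KPC-exo array, whose 75th percentile was 639 units, against 380 units on the MPDC-exo array. Each array's log2 signal was therefore set relative to its own 75th percentile, and a level below is that value. After this centring 16912 genes were measured, meaning that at least 1 of their probes exceeded the scanner software's limit for a spot well above background on the KPC-exo and on the MPDC-exo array, and their median log2 difference (KPC-exo minus MPDC-exo) was 0.06. On the KPC-exo array 3.68% of them were higher by 1.5-fold or more and 3.7% lower by as much. All differences are relative to the bulk of the signal: centred on the 7 spike-in control probes instead, each would be 1.00 larger on the log2 scale, and all members would lie higher. The SD given with a difference comes from the scanner software's error model for the 2 spots and holds no variation between cultures.

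All 16 myotube markers were measured on both arrays and 0 were 1.5-fold apart, with a median log2 difference of 0.07. Of 9 markers of duct epithelium, the cell type of the control exosomes' donor line, 7 were on neither array well above background, Epcam, Cdh1, Krt8 and Krt18 among them. The 2 measured, Krt19 and Sox9, had log2 differences of 0.13 and -0.15. Of 7 fibroblast markers 6 were measured, all within 1.5-fold at their brightest probes, with a median of 0.20, though a further Col1a2 probe reached 0.71. Of 4 macrophage markers 3 were measured, with Cd68 at 0.63 and Csf1r at -0.87, past 1.5-fold in opposite directions. The other measured Csf1r probe was at -0.33, within 1.5-fold. The part of these markers in the results was not tested. In whole cultures a change in the number of cells of a type and a change in RNA per cell cannot be told apart.

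Of the 9 member genes measured, Smad6 was higher by 1.5-fold or more on the KPC-exo array (3.68% of all measured genes were), 0 were lower by as much (3.7% of all genes) and 8 lay within 1.5-fold. At 2-fold 0 members were higher, against 0.727% of all measured genes, and 0 were lower, against 1.19%. Their median log2 difference was 0.13, against 0.06 over all measured genes. When each gene took the mean of its measured probes instead, the member median was -0.001, against 0.05 over all measured genes. The fourth Id gene, Id4, was on neither array well above background. Of the members' 16 probes, 12 were well above background on both arrays, and 3 genes had 2 such probes.

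**Figure D1:**
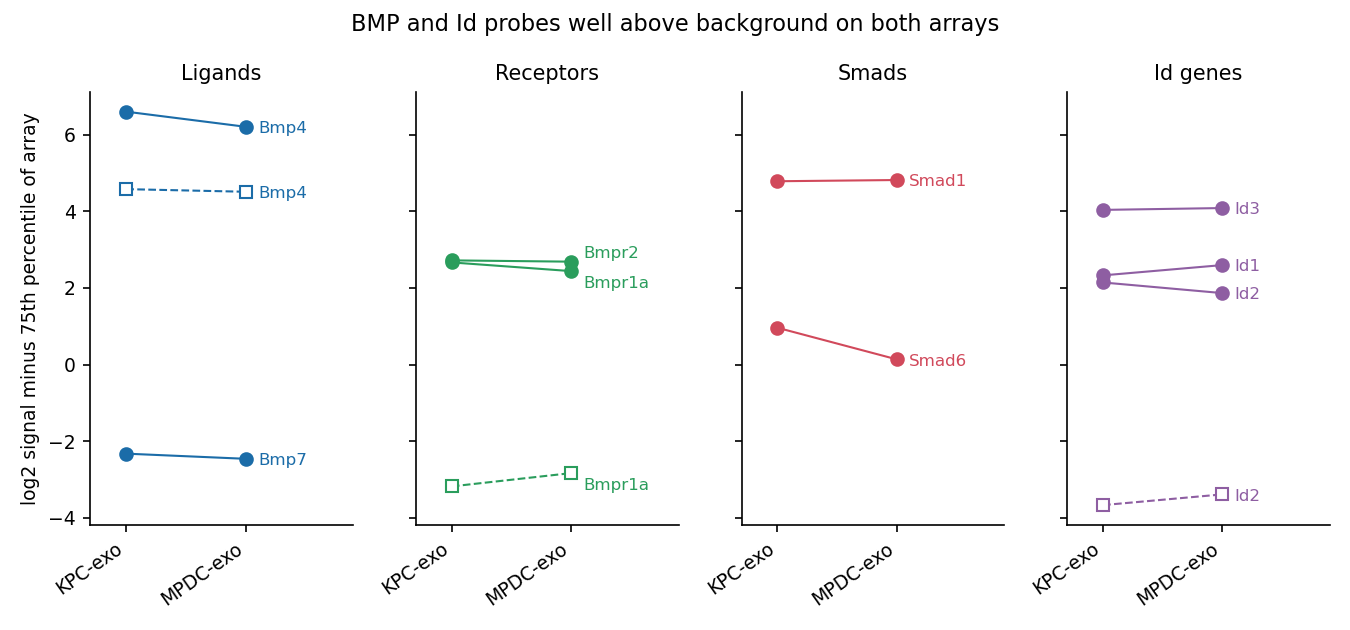
Level (log2 signal minus the array's 75th percentile) at the 12 member probes well above background on both arrays, with KPC-exo on the left and MPDC-exo on the right of each panel. Filled circles are the brightest probe of a gene and open squares its other probe, and lines join the 2 arrays. The line of Smad6 is the steepest, while those of Smad1, Id3 and Bmpr2 are nearly flat.

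Among the Smads, the receptor-activated Smad1 was level and the inhibitory Smad6 was higher. Smad6 had a signal of 1243 units on the KPC-exo array, against 418 units on the MPDC-exo array, or levels of 0.96 and 0.13. The KPC-exo array was thus the higher one, also beyond the general difference in brightness. The log2 difference was 0.83 ± 0.21 (error model SD), a 1.77-fold higher level on the KPC-exo array. It was the 235th highest of the 16912 measured genes, 98.6% of which had a lower difference. Over 11 alternatives of background correction, scaling and filtering, leaving aside the spike-in centring, it ran from 0.74 to 0.83. With 1 unflagged probe, the filters and the mean over probes could move the value only through the centring. The value rests on the 1 Smad6 probe on the array, on which the spots were not flagged and stood 35.5 times and 13.9 times above their local background on the KPC-exo and MPDC-exo arrays.

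Smad1, the carrier of the signal from receptor to nucleus, had 17611 units on the KPC-exo array and 10724 units on the MPDC-exo array. After centring its log2 difference was -0.03 ± 0.20, well inside the error of the spots. A second Smad1 probe was on neither array well above background.

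Of the ligands, Bmp4 gave strong signal in these myotubes and Bmp7 little. Bmp4, a secreted ligand that binds Bmpr1a, had 62029 units on the KPC-exo array, against 28113 units on the MPDC-exo array, at its brighter probe (chr14:47003391-47003450). Its log2 difference there was 0.39 ± 0.20, or 1.31-fold. The other Bmp4 probe, the coding one printed above, had 15267 units on the KPC-exo array and 8673 units on the MPDC-exo array, a log2 difference of 0.07 ± 0.20. Both Bmp4 probes were thus on the higher side, but 0.33 apart in log2 difference, and neither reached 1.5-fold. Over the 5767 genes with several measured probes, the log2 differences of probes of 1 gene had a pooled SD of 0.36.

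Bmp7, a ligand of the same family best known from kidney and bone, had 127 units on the KPC-exo array and 69.1 units on the MPDC-exo array at its 1 probe, 4.27 and 3.25 times the local background. Its log2 difference of 0.13 ± 0.27 was within the spot error, and the local background of its spot on the KPC-exo array was flagged.

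The receptors lay close to the bulk of genes. Bmpr1a, the type I receptor also called ALK3, had 4052 units on the KPC-exo array and 2063 units on the MPDC-exo array at its brighter probe, with a log2 difference of 0.23 ± 0.20. Its coding probe was dim, with 70.4 units on the KPC-exo array and 53.3 units on the MPDC-exo array, and differed the other way by -0.35 ± 0.34. The 2 Bmpr1a probes therefore gave no common direction, and their mean was -0.06.

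Bmpr2, the type II receptor that activates the type I kinase, had 4205 units on the KPC-exo array and 2447 units on the MPDC-exo array. The log2 difference was 0.03 ± 0.20, and it changed sign among the alternatives, from -0.03 to 0.12. Of its 2 further probes, 1 was well above background only on the MPDC-exo array, where it had 38.1 units, against 44.7 units on the brighter KPC-exo array, and the other was not on either.

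The measured Id genes differed by less than 1.5-fold, without a clear direction for Id2 and Id3. Id1 had 3206 units on the KPC-exo array and 2301 units on the MPDC-exo array at its 1 probe (chr2:152563083-152563142). Its log2 difference was -0.27 ± 0.20, the lowest among the measured members, and stayed between -0.34 and -0.16 in the 11 alternatives. Here too the filters and the mean over probes could move the value only through the centring. Id1 was thus slightly lower on the KPC-exo array, 1.20-fold, and short of 1.5-fold.

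Id2, which in the mouse is also needed for natural killer cells and lymph nodes, had 2819 units on the KPC-exo array and 1386 units on the MPDC-exo array at its brighter probe. The log2 difference was 0.28 ± 0.20. A second, dim Id2 probe had 50.2 units on the KPC-exo array and 36.3 units on the MPDC-exo array, a log2 difference of -0.28 ± 0.42. Its local background was flagged on both arrays, and averaging both Id2 probes gave 0.00.

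Id3 had 10486 units on the KPC-exo array and 6458 units on the MPDC-exo array at the probe printed above, and its log2 difference was -0.05 ± 0.20. Id4, a brain-enriched member of the family, was at 9.48 units on the KPC-exo array and 6.26 units on the MPDC-exo array, both values being the surrogate that the software sets for spots near background. No difference is given for it. Of the 3 Id genes measured, then, 0 were 1.5-fold apart. At their brightest probes Id2 lay above and Id1 and Id3 below the median of all genes. The Id2 probes gave no common direction, however, and the Id3 difference was within the spot error.

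**Figure D2:**
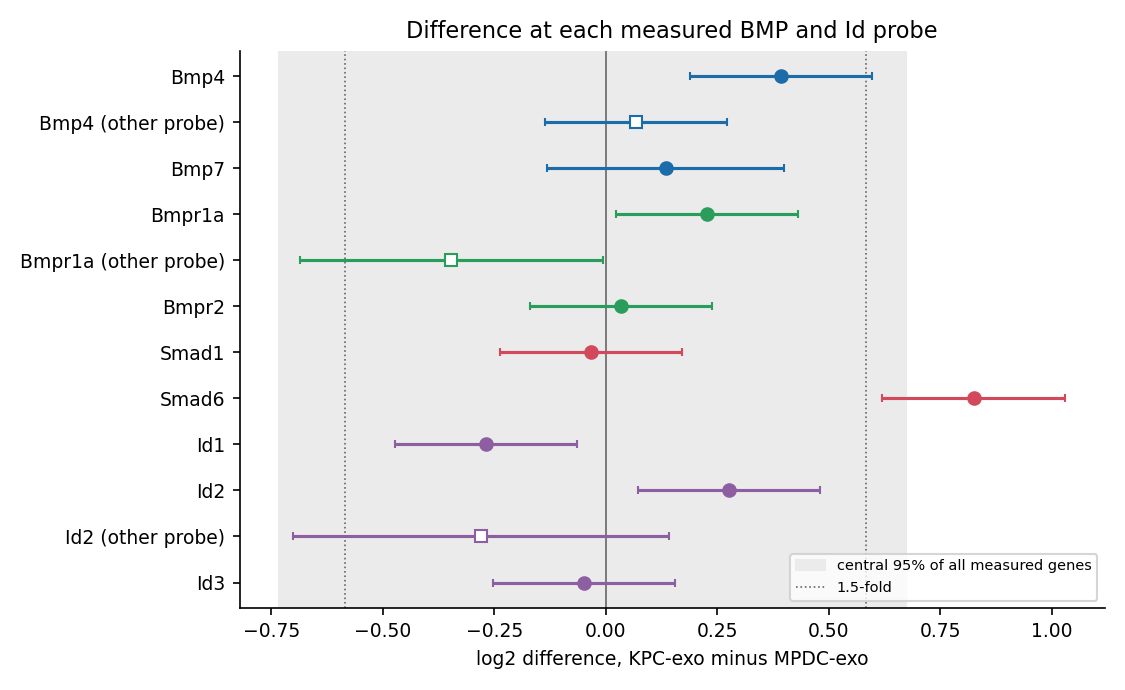
Log2 difference, KPC-exo minus MPDC-exo, at the 12 measured member probes; bars are the error model SD of the 2 spots, filled circles the brightest probe of a gene and open squares its other probe. The grey band holds the central 95% of all measured genes, from -0.73 to 0.67, and dotted lines mark 1.5-fold. Smad6 at 0.83 is the 1 member outside the band.

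**Figure D3:**
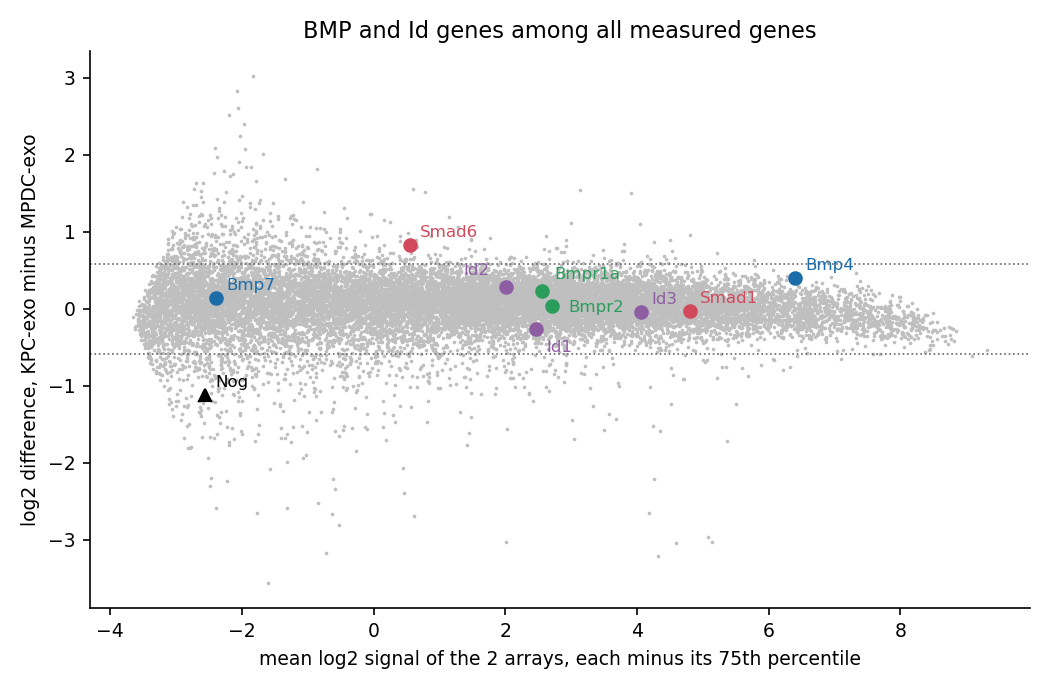
Log2 difference of each of the 16912 measured genes (grey) against its mean level on both arrays, with the 9 measured members coloured by role and Nog as a triangle; dotted lines mark 1.5-fold. Grey points spread more widely at low level, where Bmp7 and Nog lie, than at the levels of Id1, Id2, Id3, Smad1 and Bmp4.

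The rest of the pathway was described with 75 genes grouped by role. Of these 56 were measured, 3 were well above background only on the KPC-exo array and 16 on neither array. Of all 37061 gene names, 1264 were well above background only on the KPC-exo array, 609 only on the MPDC-exo array and 18239 on neither. The 56 measured genes had a median log2 difference of 0.09. Among them 0 were at least 1.5-fold higher and 1 at least 1.5-fold lower, against the 3.68% and 3.7% over all genes. The other 55 lay within 1.5-fold.

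The lower gene was Nog. Noggin binds BMP ligands outside the cell and keeps them from their receptors. It had 73.5 units on the KPC-exo array and 95.4 units on the MPDC-exo array at 1 dim probe, the lower raw signal being on the array that was brighter overall. Its log2 difference was -1.12 ± 0.30, or 2.18-fold lower on the KPC-exo array. Of all measured genes 1.19% were lower by 2-fold or more. That share covers genes of every level, whereas differences spread more widely among dim genes such as Nog. With normexp background correction the Nog difference was -0.69, under 2-fold, and with spike-in centring -0.12.

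Of the 16 antagonists and modulators, Nog among them, 12 were measured, 8 of them above and 4 below 0, with a median log2 difference of 0.08. The other 11 measured lay within 1.5-fold. Over all 16912 measured genes, 9970 lay above and 6942 below 0.

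Few further BMP-family ligands were detected. Of 12, 2 were measured and 8, Bmp2 and Bmp6 among them, were on neither array well above background. Bmp8a had 118 units on the KPC-exo array and 47.0 units on the MPDC-exo array, a log2 difference of 0.58 ± 0.31 or 1.49-fold, which was 0.11 with normexp. Its probe shared a run of 20 bases with 1 probe of another gene. Gdf5, a ligand of joint and tendon development, had 0.24 ± 0.25, and -0.04 with normexp. Gdf2 and Gdf6 were well above background only on the KPC-exo array, at least 1.12-fold and at least 1.41-fold higher there, where more probes passed in general (47.6%, against 45.9% on the MPDC-exo array).

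Of 10 other receptors and co-receptors 9 were measured, with a median of 0.12. Acvr2a, a type II receptor shared with activins, had 257 units on the KPC-exo array, against 112 units on the MPDC-exo array. Its log2 difference was 0.45 ± 0.23, or 0.23 with normexp, and 0.29 at its other measured probe. Rgmb, a membrane-bound co-receptor, had a log2 difference of 0.38 ± 0.20 where brightest and of -0.45 at its other measured probe, so that its direction depends on the probe.

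All 14 other Smads and intracellular regulators were measured, 6 above and 8 below 0, with a median of -0.04. Of all 16912 measured genes, 9970 were above and 6942 below 0. Fkbp1a, whose product binds type I receptors of the family and keeps them inactive, had 45925 units on the KPC-exo array and 39769 units on the MPDC-exo array. Its log2 difference was -0.54 ± 0.20, or 1.45-fold lower on the KPC-exo array, and -0.83 at its second probe, past 1.5-fold. In 4 of 11 alternatives the gene was past 1.5-fold. Centring on the median gave -0.59 and centring on detected probes -0.60. Without background-flagged spots it was -0.83, because the brightest probe dropped out and the second stood for the gene. The mean over both probes was -0.68. The latter settings draw on the second probe and are not separate from it. Smurf2, a ubiquitin ligase for Smads, had -0.29 ± 0.21 and the same sign at both its probes. The other inhibitory Smad, Smad7, named after its value was seen, had 1696 units on the KPC-exo array and 1056 units on the MPDC-exo array, a log2 difference of -0.06 ± 0.20 beside the 0.83 of Smad6.

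Further BMP targets, of which 11 of 12 were measured, had a median of 0.10. Msx1, a homeobox gene that restrains muscle differentiation, had 4458 units on the KPC-exo array and 1956 units on the MPDC-exo array, a log2 difference of 0.44 ± 0.20. Atoh8, a helix-loop-helix gene, lay on the other side at -0.29 ± 0.21. Neither reached 1.5-fold.

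The factors that Id proteins bind or hold in check differed little. Of 7, 5 were measured, with a median of 0.14 and 0 at least 1.5-fold apart. Tcf3 and Tcf12, which encode the E proteins E2A and HEB, had 0.21 ± 0.20 and 0.19 ± 0.20. Myod1 and Myog, the muscle regulators that pair with them, had -0.09 and -0.16. Markers of cycling and undifferentiated myoblasts, in which Id genes are known to be high, lay below 0 but within 1.5-fold at their brightest probes. All 4 measured of 5 (Pax7, Mki67, Top2a and Ccnb1) had log2 differences from -0.41 to -0.28 there, while Myf5 was not well above background. Among all 16912 measured genes, 6942 lay below 0. The 3 Top2a probes ran from -0.69 to 0.09 and those of Ccnb1 from -0.69 to -0.18, the lowest of each being past 1.5-fold. The log2 of the summed levels of these 4 markers was 3.56 on the KPC-exo array and 3.93 on the MPDC-exo array. Their part in the Id values was not tested.

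Osteoblast genes, the readout of strong BMP signalling in C2C12 cells, had a median of 0.16 over 5 measured of 6, with 0 at least 1.5-fold apart. Bglap, which encodes osteocalcin, had 96.3 units on the KPC-exo array and 45.7 units on the MPDC-exo array, a log2 difference of 0.33 ± 0.33, and was -0.01 with normexp. Runx2, the master factor of bone, had 0.19 ± 0.21 at the brighter and -1.09 at the dimmer of its 2 measured probes. Ibsp was on neither array well above background.

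**Figure D4:**
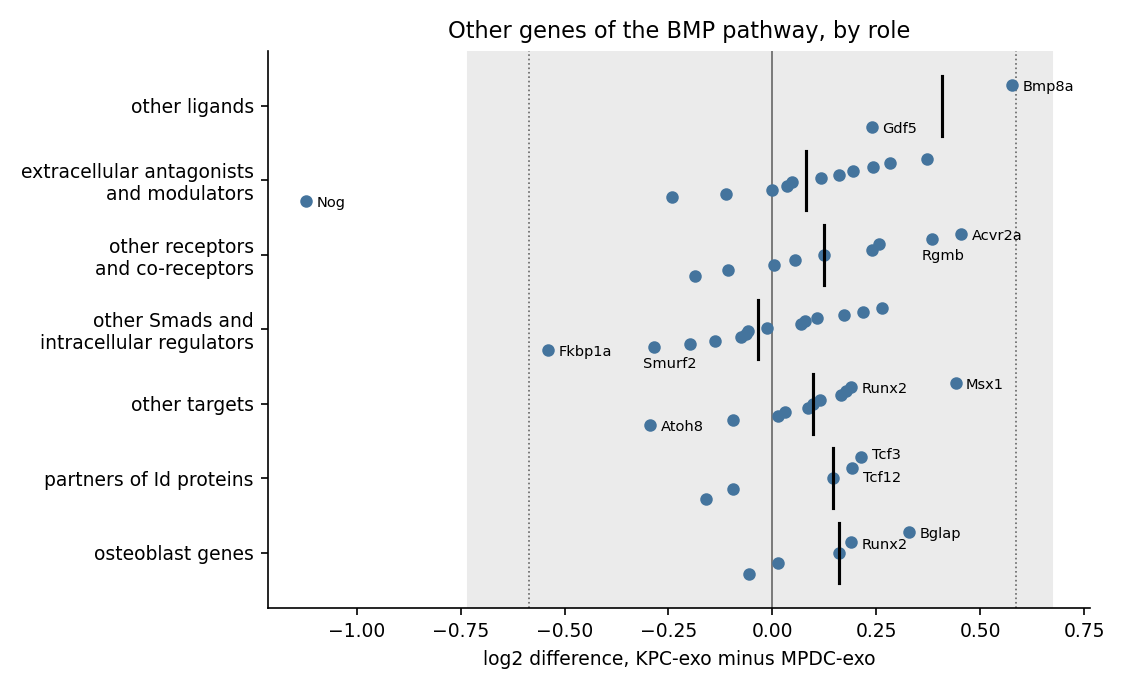
Log2 difference, KPC-exo minus MPDC-exo, of the 56 measured genes of the wider BMP pathway by role; each point is a gene, black bars are role medians, the grey band is the central 95% of all measured genes and dotted lines mark 1.5-fold. Runx2 and Sp7 are drawn under both targets and osteoblast genes. Nog at -1.12 is the 1 gene outside the dotted lines, and the role medians lie between -0.04 and 0.41, the highest being that of only 2 ligands.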

How the data were processed

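Per the labels, Cy3-labelled cRNA of total RNA was hybridised to 1-colour Agilent arrays. Agilent Feature Extraction 10.7.1.1 gave the deposited intensity of each spot, with spatial and multiplicative detrending within the array, per the file headers. The submitters' processing notes name the same version. The authors' value table holds log2 values for which no method is stated in the labels. They correlated with the log2 scanner signal at r = 1.00 across probes, had a median of 4.88 in both columns, and served only as an alternative. Once sorted, the columns differed by at most 0.0005, as they do after quantile normalization. This alternative and quantile normalization are therefore not separate. Both arrays came from 1 slide and 1 scan.

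The software's limit for a spot well above background was used. Log2 of the processed signal was averaged over unflagged spots (166 spots on the KPC-exo array and 102 on the MPDC-exo array were left out), and each array's 75th percentile was subtracted. No spot was saturated. Each gene took the value of the brightest of its probes that passed this limit on the KPC-exo and the MPDC-exo array. Genes passing on a single array received a bound, set against the higher of the other array's lowest signal well above background and the probe's own. The number of arrays limits the precision. The 292 repeatedly spotted probes that were well above background on both arrays had a median spot SD of 0.03 (log2). RefSeq names of assembly GRCm38.p6 matched 32994 of 56605 probes, and all 10 members kept their names. Differences of at least 1.5-fold were counted as a description. Named from the wider list were genes past 1.5-fold and the 2 largest differences of each role. One gene that this rule names and one donor-line allele are not reported here. The further genes named (Smad7, Smad4, Skil, Zeb2, Junb, Myod1, Myog, Bmp2, Bmp6, Gdf2, Gdf6 and Ibsp) were chosen after their values were seen. Members and lists were chosen with earlier results of these data known. The calculation was also run on simulated data, with changes of 2-fold or more planted only in brighter genes. That run does not bear on dim genes or on differences near 1.5-fold. Python 3.11.15, numpy 2.4.6, pandas 2.3.3, R 4.3.3 and limma 3.58.1 were used.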

Additional observations from a re-analysis of the deposited data

How the results depend on the processing

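Alternatives were normexp background correction, other centrings, quantile and cyclic loess normalization, the series value table, other filters on dim, flagged or background-flagged spots, the mean over probes and a 2-fold threshold. Apart from spike-in centring, all 97 member values obtained stayed on their side of 1.5-fold, although Bmp7, Bmpr1a, Bmpr2, Smad1 and Id2 changed sign near 0. For members with 1 measured probe, the filters and the mean over probes could move a value only through the centring. Bmp7 had no value under the stricter filter or with background-flagged spots left out. No paired analysis was possible because each group has 1 array. Depth does not apply to arrays, and dim probes limit Bmp7, Bmp8a, Gdf5, Acvr2a, Bglap and Nog.

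With spike-in centring the log2 differences were 1.39 for Bmp4, 1.13 for Bmp7, 1.23 for Bmpr1a, 1.03 for Bmpr2, 0.97 for Smad1, 1.83 for Smad6, 0.73 for Id1, 1.28 for Id2 and 0.95 for Id3, with medians of 1.13 for the members and 1.09 for the wider list. It placed 9 members, 54 wider-list genes and 15797 of all genes at least 1.5-fold higher, and 0 wider-list genes and 57 of all genes lower. At 2-fold, 0 members were higher, and 123 and 201 of all genes were higher and lower, in place of 623 and 625 at 1.5-fold. With no filter on dim probes 3 wider-list genes were higher and 2 lower, and 3032 and 2642 of the 37042 genes then kept (8.19% and 7.13%). With the stricter filter 0 wider-list genes were lower, and 174 and 251 of the 12444 genes left were higher and lower (1.40% and 2.02%). Wider-list genes at least 1.5-fold lower numbered 2 when centred on the median or on detected probes, where 4.36% and 4.39% of all genes were lower. Such wider-list genes numbered 2 for the mean of all measured probes of a gene (3.75% of all genes) and 3 without background-flagged spots (4.01% of all genes). Normexp gave 275 higher and 433 lower genes. The share of higher among all genes past 1.5-fold, 49.9% in the values reported, was 38.8% with normexp, 39.9% with median centring, 39.5% with detected-probe centring, 37.1% with loess and 99.6% with spike-in centring. The spike-in, median and detected-probe centrings each move all genes by 1 constant, and the cause of the other shifts was not tested. The median of the 2 measured ligands of the wider list, 0.41, was 0.04 with normexp, and without the filter the ligand median was -0.04.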

Other observations

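Probes of 1 gene often differed in sign. Of the 24 wider-list genes with at least 2 measured probes, 14 (58.3%) had probes on both sides of 0 and 7 (29.2%) had a probe at least 1.5-fold apart. Over all 5767 genes with that many probes the shares were 53.9% and 22.0%, so the wider list lay near the rest of the array. Skil, which encodes the Smad co-repressor SnoN, differed by 0.17 (log2) at its bright probe and by -1.32 at a dim one, and Runx2 had 0.19 and -1.09. Smad4, the partner of all receptor-activated Smads, had 0.08 and 0.31 at its 2 brighter probes and -0.71 and -0.56 at its 2 dimmer ones. Tcf12 had differences of 0.19, 0.20 and -0.24 at 3 probes and 0.98 at its dimmest, and Zeb2, a Smad-binding repressor, had -0.06, -0.37 and 0.75. Junb, an immediate early gene that BMP can induce, had -0.09 at its brightest probe and -0.76 at the other. Fkbp1a was the 1 gene of these 7 with both its probes near or past 1.5-fold in 1 direction, at -0.54 and -0.83. Whether the probes of a gene read different transcripts was not tested.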
